A study of Rattus norvegicus with 6 samples.

Results

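The genes described here are ATP-binding cassette (ABC) transporters and carriers of organic solutes in the lateral ventricular choroid plexus of the rat. They were taken by gene symbol, as families Abca to Abcg, Slco, Slc10a, Slc15a, Slc22a, Slc28a, Slc29a, Slc35, Slc37a, Slc44a and Slc47a, from a table of 10653 genes that the authors had called different between the ages, and this gave 62 genes of the 29479 identifiers counted. The members were thus chosen by measured values of the same comparison and the same libraries, so every difference between the ages is given below as a description. Where a member is said to be called, the word is a label from a fit over all genes, which tests nothing about the members and supports nothing further. Genes of these families that the authors did not call have no name here, and Abcb1a, Abcc4, Slco1a4 and Slc29a1 were not analysed here by name.

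ABC transporters use ATP to move lipids, drugs and conjugates across membranes, and several of them pump their substrates out of cells. Slco and Slc22a carriers move organic anions and cations, and Slc47a1 exports organic cations. Slc10a6 carries steroid sulfates, and further Slc families here include carriers of peptides, nucleosides, nucleotide sugars, sugar phosphates or choline. In the choroid plexus, an epithelium around vessels and stroma that makes cerebrospinal fluid, such carriers are known for clearing solutes from that fluid and for passing hormones and nutrients into it.

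RNA was sequenced from untreated Sprague-Dawley rats at embryonic day 15 (E15) and as adults. Each of the 3 pools at an age held the plexuses of both lateral ventricles from 10 animals and gave 1 library. The plexus was taken whole, so vessels, blood and stroma are in every pool, and in such bulk samples fewer cells of a type and less RNA per cell cannot be told apart. The E15 libraries held 17875089, 18901272 and 18524987 counts and the adult libraries 18511712, 19204440 and 18421472.

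The libraries differed in makeup before any member was looked at. Ttr, the carrier of thyroxine that plexus epithelium makes in bulk, took 2.66, 3.21 and 3.31% of the counts in the E15 libraries against 17.5, 15.1 and 14.4% in the adult ones. The 62 members together took 0.232, 0.233 and 0.233% in E15 pools against 0.448, 0.452 and 0.465% in adult pools. Most of that gap lay in Slco1a5 and Slco1c1, and the other 60 members took 0.218, 0.221 and 0.222% against 0.249, 0.258 and 0.248%. Folds are ratios of mean normalized counts, which are counts scaled by TMM factors, and log2 fold changes are fitted values with their standard error (SE), positive where E15 was higher. E15 replicate 1 stood apart from the other E15 libraries, with Spearman correlations of 0.979 and 0.982 to them against 0.996 between those.

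More than 10 counts over the 6 libraries were found for 61 of the 62 members, and Slc22a12, a urate carrier, did not reach this. At an adjusted p under 0.05 in edgeR's quasi-likelihood test, 26 members were higher at E15, beside 34.7% of all genes tested, and 30 were higher in the adult, beside 29.3%. Nothing is read from these shares, since the choice of members fixed them. The pools of the ages did not overlap for 58 of the 61 members tested, beside 70.1% of all genes tested. The median log2 fold change was -0.66 over the members tested and 0.14 over all 16643 genes. Over the tested genes with a name in the authors' table it was 0.73, and over the other Slc genes there -0.91. With total counts in place of TMM factors the median of all genes moved to 0.95. That scaling called 28 members higher at E15 and 22 in the adult, and 9799 and 2292 of all genes in place of 5773 and 4879. Of the 20 ABC genes, 12 were called higher at E15 and 7 in the adult, and of the 41 Slc and Slco genes tested, 14 and 23.

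**Figure D1:**
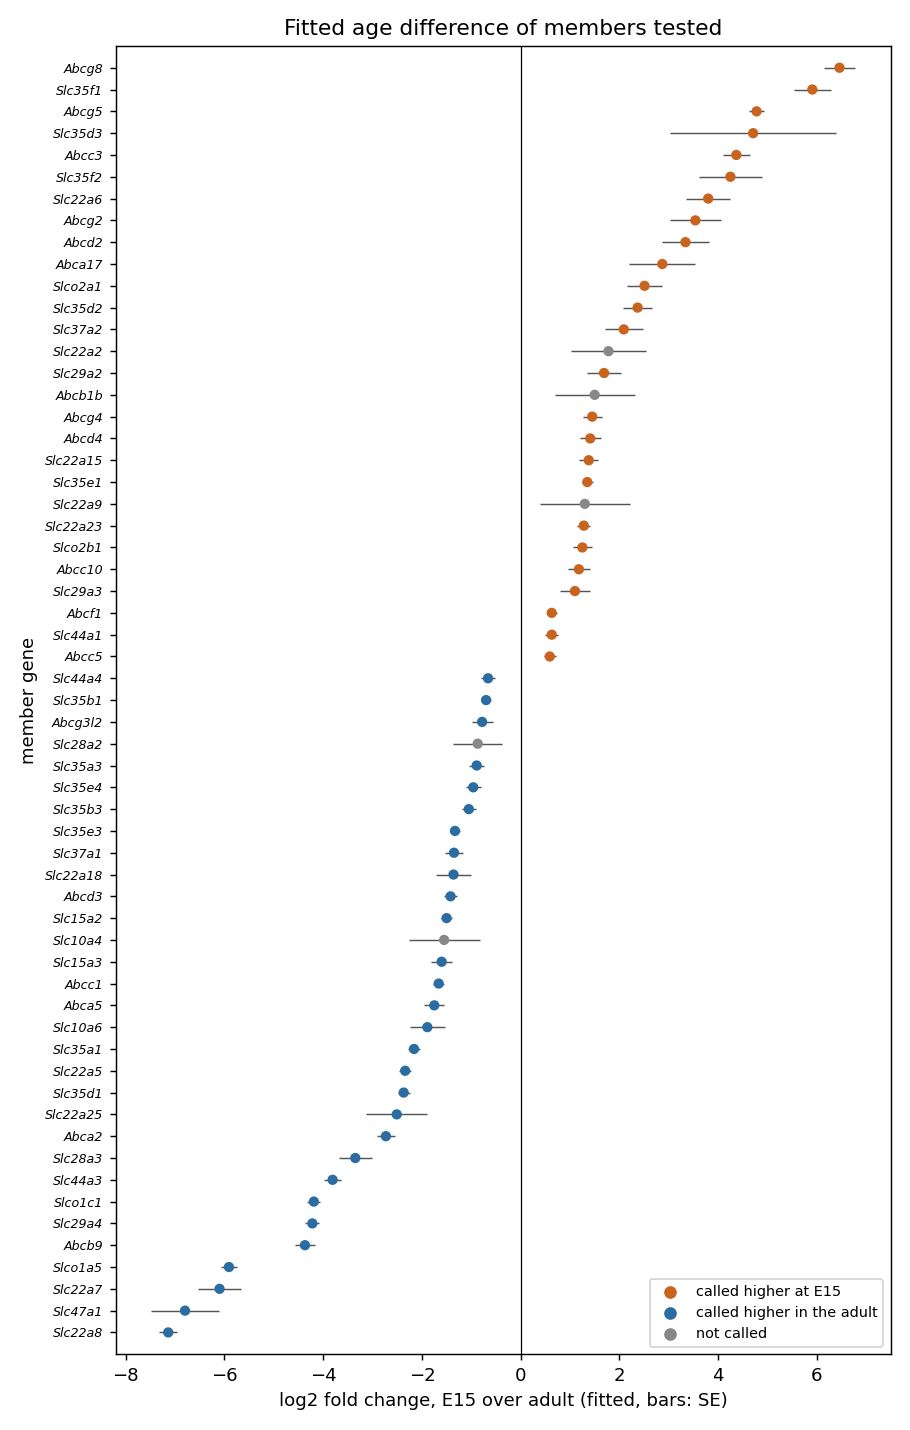
Fitted log2 fold change of E15 over adult (horizontal axis) for 59 of the 61 members tested (vertical axis), with bars for the SE and colours for the age in which a member was called higher. Slc22a8 lies lowest at -7.14 and Abcg8 highest at 6.46, and the gap around 0 comes from choosing members among genes already called.

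Among the ABC pumps of drugs and conjugates, Abcc1 was the 1 member called higher in the adult. Abcc1 (Mrp1), which exports glutathione and glucuronide conjugates, had 689, 836 and 808 counts in the E15 pools against 1431, 1438 and 1412 in adult pools, a 3.17-fold higher mean (log2 fold change -1.66 ± 0.11 SE). Every adult pool lay above every E15 pool. Abcc3, another exporter of conjugates, went the other way, with 339, 473 and 450 counts in the E15 pools against 9, 10 and 16 in adult pools, 20.8-fold higher at E15 (4.37 ± 0.28). Each E15 pool held at least 339 counts and no adult pool more than 16. Abcc5, which exports cyclic nucleotides, had 1522, 1751 and 1493 counts in the E15 pools against 600, 581 and 648 in adult pools, a 1.51-fold difference (0.59 ± 0.12). Its ages did not overlap, though the difference was the smallest of the E15-higher members tested. Abcc10 was 2.26-fold higher at E15.

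Abcg2, the breast cancer resistance protein, had 329, 217 and 151 counts in the E15 pools against 3, 18 and 14 in adult pools, 11.8-fold higher at E15 (3.54 ± 0.51). E15 replicate 1 was the highest pool and adult replicate 1 the lowest. Abcb1b, 1 of the rodent genes for P-glycoprotein, had 34, 28 and 35 counts in the E15 pools against 4, 16 and 0 in adult pools (1.5 ± 0.81). The ages did not overlap, but the adult pools spread widely and the gene was not called. Without adult replicate 2 its log2 fold change was 3.11, and without adult replicate 3 it was 0.91. Reads from near-identical genes were discarded by the authors, so the counts of Abcb1b are uncertain.

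Both Abcg2 and Abcb1b are known from brain endothelium, and endothelial markers were higher at E15 as well. Of the 12 genes in the endothelial list 8 had a name, and all 8 were called higher at E15, with a median log2 fold change of 2.90. Here and in the lists below only genes that the authors had called have a name, which raises such counts. Of the 9958 genes tested with a name, 50.6% were called higher at E15 and 42.2% in the adult. The summed normalized counts of the 8 were 8990, 13100 and 11100 in the E15 pools against 1030, 1450 and 1170 in adult pools. Cdh5 and Plvap were close at the top at E15, with mean normalized counts of 2290 and 2270 and Plvap ahead in replicates 2 and 3. Plvap and Tek were close at the top in the adult, with means of 263 and 252 and Tek ahead in replicate 2. None of the 8 was at 0. The part of endothelium in the values of Abcg2 and Abcb1b was not tested.

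**Figure D2:**
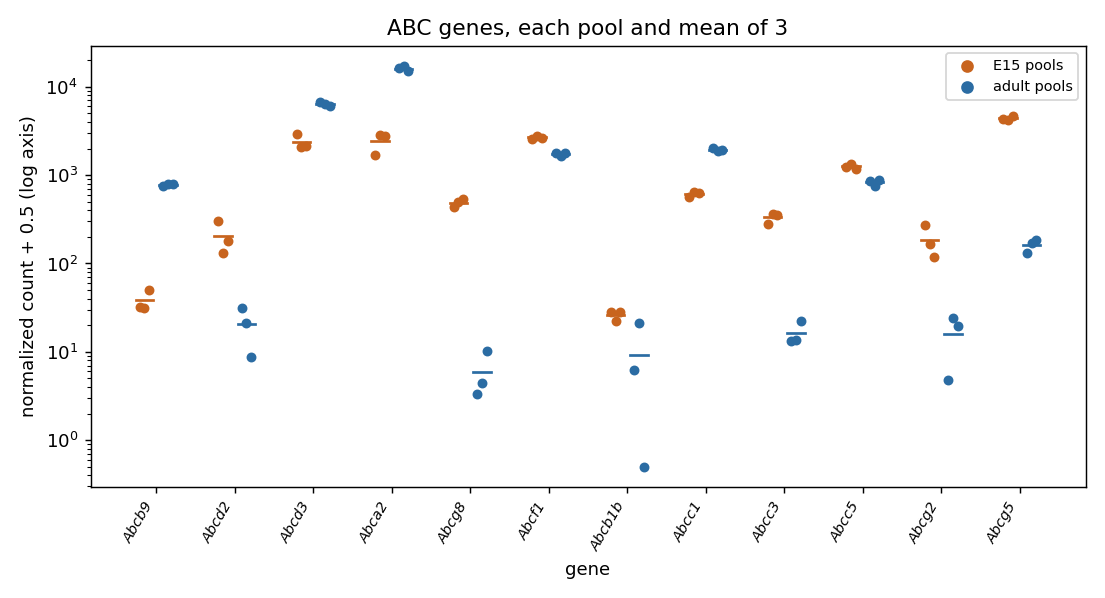
Normalized count plus 0.5 on a log axis (vertical) for the named ABC genes and Abcg5 (horizontal), with a point for each of the 3 pools of an age and a line at their mean. Abcg8, Abcg5 and Abcc3 show E15 pools far above the adult pools, Abcb9 and Abca2 the reverse, and the adult pools of Abcb1b spread from 0 to close to the E15 pools.

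The members with the largest E15 excess among the lipid transporters were a known pair. Abcg5 and Abcg8 encode the partner subunits of the sterol exporter of liver and gut, and Abcg5 is described beside its partner although it was chosen after its values were seen. Abcg8 had 534, 644 and 681 counts in the E15 pools against 2, 3 and 7 in adult pools, 89.8-fold higher at E15 (6.46 ± 0.32). Without adult replicate 3 the log2 fold change was 7.10. Abcg5 had 5265, 5504 and 5917 counts in the E15 pools against 92, 129 and 133 in adult pools, 27.4-fold higher (4.78 ± 0.15). Within a library, where scaling plays no part, the ratio of Abcg5 to Abcg8 counts was 9.86, 8.55 and 8.69 in E15 pools against 46, 43 and 19 in adult pools.

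Abcg8 and Abcg5 are neighbours on opposite strands, 1 of 3 pairs of neighbouring protein-coding genes among the members in the RefSeq annotation of GRCr8. The 205 bases between their annotated starts (chr6:15717731-15717935, plus strand, toward Abcg5) lie upstream of both and are shown because this pair moved together. Capitals mark matches on either strand to TATAAA and to CCAAT and to TGANNNNGC, each found 1 time.
Abcg8-Abcg5: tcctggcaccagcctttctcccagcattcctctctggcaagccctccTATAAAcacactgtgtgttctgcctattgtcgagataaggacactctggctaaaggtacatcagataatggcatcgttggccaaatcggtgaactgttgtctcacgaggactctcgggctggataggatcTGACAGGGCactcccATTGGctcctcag

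Abca2, a lipid transporter of lysosomal membranes, had 2073, 3671 and 3522 counts in the E15 pools against 11476, 13234 and 10813 in adult pools, 6.63-fold higher in the adult (-2.73 ± 0.19). E15 replicate 1 was the lowest pool of all. Abca2 is known from oligodendrocytes, and of the 8 genes of that marker list 6 are reported here, 4 called higher in the adult and 2 at E15. Their summed normalized counts were 1160, 1310 and 1100 in the E15 pools against 4460, 3390 and 3040 in adult pools. Cldn11 was the most abundant at E15, and Mag was at 0 in E15 replicates 1 and 2. Ermn and Mal were close at the top in the adult, with mean normalized counts of 1290 and 1250 and Mal ahead in replicates 1 and 2. Adult replicate 1 had the highest marker sum and adult replicate 2 the most Abca2 counts. Single markers were less even between the adult pools than the sum, with Mag at 222, 59.7 and 15.1 normalized counts and Mobp at 808, 243 and 128. Mog and Cldn11 were also lowest in replicate 3. Mal had 1360, 1220 and 1150 and Ermn 1330, 1090 and 1440, and Abca2 had 16200, 17200 and 14900. The part of these cells in Abca2 was not tested. The other lipid transporters were Abca5 and Abcg3l2, higher in the adult, though Abcg3l2 turns to 0.03 with total counts only, and Abcg4 and Abca17, higher at E15, with Abca17 moving from 2.87 to 3.57 on the log2 scale without adult replicate 1.

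In organelles, Abcb9, the lysosomal peptide transporter, had 39, 40 and 64 counts in the E15 pools against 526, 613 and 583 in adult pools, 20.7-fold higher in the adult (-4.37 ± 0.21). Abcd2 and Abcd3, peroxisomal carriers of fatty acyl groups, went opposite ways. Abcd2 had 371, 171 and 227 counts in the E15 pools against 22, 16 and 6 in adult pools, 10.2-fold higher at E15 (3.34 ± 0.47), with E15 replicate 1 highest. Abcd3 had 3533, 2731 and 2750 counts in the E15 pools against 4724, 4856 and 4459 in adult pools, 2.67-fold higher in the adult (-1.42 ± 0.14). Abcd4 was 2.65-fold higher at E15. Abcf1, an ABC protein that acts in translation and not in transport, had 3154, 3622 and 3393 counts in the E15 pools against 1267, 1252 and 1282 in adult pools (0.63 ± 0.10).

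The Slco carriers divided evenly. Slco1a5, a carrier of bile salts, steroid conjugates and thyroid hormones, had 681, 514 and 541 counts in the E15 pools against 18766, 20078 and 22007 in adult pools, 60.2-fold higher in the adult (-5.91 ± 0.17). Slco1c1, the thyroxine carrier of brain barriers, had 1802, 1764 and 1465 counts in the E15 pools against 18244, 17100 and 17962 in adult pools, 18.3-fold higher (-4.19 ± 0.13). For both, the lowest adult pool was many times the highest E15 pool. Slco2a1, the prostaglandin carrier, had 121, 254 and 171 counts in the E15 pools against 14, 18 and 23 in adult pools, 5.73-fold higher at E15 (2.51 ± 0.35). Slco2b1, a carrier of steroid sulfates, had 287, 371 and 356 counts in the E15 pools against 77, 81 and 89 in adult pools, 2.38-fold higher at E15 (1.25 ± 0.19). The ratio of Slco1a5 to Slco2b1 counts within a library was 2.37, 1.39 and 1.52 in E15 pools against 244, 248 and 247 in adult pools. Slco1a5 has close relatives in the genome, so its level is uncertain where reads fit more than 1 of them.

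The Slc22a family held the largest adult excess of all members. Slc22a8 (Oat3), which takes up organic anions from the cerebrospinal fluid, had 52, 77 and 51 counts in the E15 pools against 5137, 4849 and 4726 in adult pools, 141-fold higher in the adult (-7.14 ± 0.18). Slc22a6 (Oat1), with overlapping substrates, had 260, 490 and 547 counts in the E15 pools against 10, 33 and 11 in adult pools, 14.1-fold higher at E15 (3.80 ± 0.44). Both genes separated the ages fully, in opposite directions. Adult replicate 2 was the highest adult pool for Slc22a6, and without it the log2 fold change was 4.49. The RefSeq annotation places Slc22a8 between Slc22a25 and Slc22a6 as neighbouring protein-coding genes. Within a library the ratio of Slc22a8 to Slc22a6 counts was 0.200, 0.157 and 0.0932 in E15 pools against 514, 147 and 430 in adult pools.

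Of the other Slc22a members, the carnitine carrier Slc22a5 was 5.07-fold higher in the adult, and Slc22a18 2.57-fold (-1.36), though with total counts only Slc22a18 was not called (-0.55). Slc22a7 (Oat2), named after its values were seen, had 5, 1 and 2 counts in the E15 pools against 104, 126 and 109 in adult pools (-6.10 ± 0.44), and -6.89 without E15 replicate 1. Slc22a15 and Slc22a23 were 2.61-fold and 2.43-fold higher at E15. Slc22a2, an organic cation carrier, had 22, 25 and 24 counts in the E15 pools against 1, 10 and 1 in adult pools and was not called (1.78 ± 0.75), and without adult replicate 2 its value was 3.60. Slc22a25 had 9 counts at E15 and 31 in the adult, and the description beside its name and that of Slc22a9 gives another member number of the family. RefSeq places the record cited there under Slc22a25 for the first and under Slc22a24 for Slc22a9, so the identity of Slc22a9 is uncertain. Slc47a1 (Mate1), an exporter of organic cations, had 0, 1 and 1 counts in the E15 pools against 37, 86 and 39 in adult pools, a ratio of 140 with an exact binomial 95% interval of 38.0 to 1160 that covers counting error only. Adult replicate 2 was the highest pool.

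**Figure D3:**
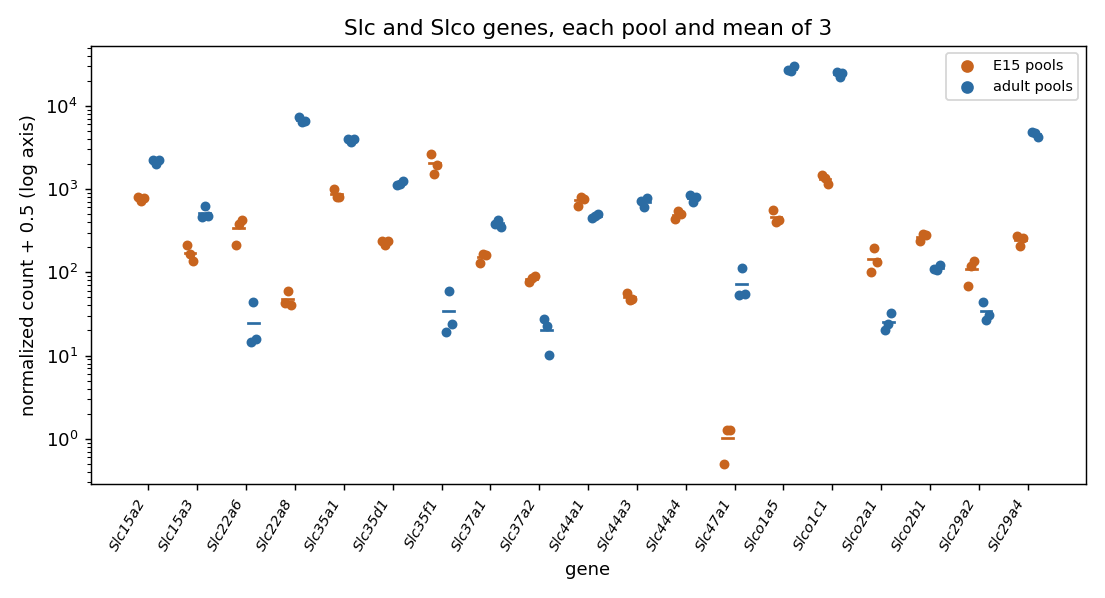
Normalized count plus 0.5 on a log axis (vertical) for the named Slc and Slco genes (horizontal), with a point for each of the 3 pools of an age and a line at their mean. Slc22a8, Slc47a1 and Slco1a5 show the widest gaps with the adult above, and Slc35f1 and Slc22a6 the widest with E15 above.

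Both peptide carriers were higher in the adult. Slc15a2 (Pept2), which clears peptides from the cerebrospinal fluid, had 966, 941 and 987 counts in the E15 pools against 1573, 1534 and 1627 in adult pools, 2.82-fold higher in normalized counts (-1.5 ± 0.11). Slc15a3, a lysosomal carrier of histidine and peptides, had 259, 216 and 173 counts in the E15 pools against 325, 486 and 342 in adult pools (-1.60 ± 0.21). Neither overlapped between the ages. Slc10a6, a carrier of steroid sulfates, was 3.73-fold higher in the adult, and Slc10a4 was not called.

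Of the nucleoside and monoamine carriers, Slc29a4 (Pmat), which moves monoamines and adenosine, had 330, 271 and 331 counts in the E15 pools against 3434, 3610 and 3060 in adult pools, 18.6-fold higher in the adult (-4.22 ± 0.14). Slc29a2, an equilibrative nucleoside carrier, had 84, 154 and 174 counts in the E15 pools against 31, 20 and 22 in adult pools, 3.24-fold higher at E15 (1.69 ± 0.35). The pools of the ages were apart for both. Slc29a3 was 2.14-fold higher at E15 but was not called without E15 replicate 2 (0.90), and the concentrative carrier Slc28a3 was 10.3-fold higher in the adult.

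All 12 members of Slc35, a family that includes nucleotide sugar carriers of the Golgi and endoplasmic reticulum, were called with all libraries and TMM factors, 5 higher at E15 and 7 in the adult, but with total counts only Slc35a3, Slc35b3 and Slc35e4 were not called and Slc35b1 changed sign. Slc35f1, a member without a settled substrate, had 3235, 1945 and 2504 counts in the E15 pools against 13, 45 and 17 in adult pools, 61-fold higher at E15 (5.91 ± 0.38) and 6.57 on the log2 scale without adult replicate 2. Slc35a1, which carries CMP-sialic acid, had 1206, 1033 and 1026 counts in the E15 pools against 2781, 2834 and 2870 in adult pools (-2.16 ± 0.12). Slc35d1, which carries UDP-glucuronic acid, had 286, 273 and 305 counts in the E15 pools against 795, 883 and 920 in adult pools, 5.17-fold higher in the adult (-2.37 ± 0.12). Its relative Slc35d2 was 5.17-fold higher at E15. Slc35f2 and Slc35e1 were higher at E15, and Slc35a3, Slc35b1, Slc35b3, Slc35e3 and Slc35e4 in the adult, by 1.62-fold to 2.51-fold. The log2 fold change of Slc35f2 was 4.25, and 5.52 without adult replicate 2 and 3.66 without adult replicate 3. Slc35d3 had 2, 6 and 4 counts in the E15 pools against 0 in each adult pool, at least 2.30-fold higher against a floor of 3 counts over the adult pools. It was not called without a filter, with DESeq2, with the replicate block, or without adult replicate 1, 2 or 3 (fitted values of 4.78, 4.76 and 4.77).

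Slc35f1, Abcg2, Abcd2 and Abca5 were the 4 members, of 50 with at least 90 counts at E15, in which E15 replicate 1 exceeded the mean of the other E15 pools by more than 0.5 on the log2 scale. In 7 members that pool lay lower than the others by as much, and of 13354 genes with at least 90 counts it lay higher in 1742 and lower in 2311. The summed level of developing neuron markers was highest in that pool as well, though Tubb3 was highest in replicate 3. Of the 10 markers 9 had a name, all called higher at E15, and their summed normalized counts were 5200, 1650 and 3750 in the E15 pools against 142, 483 and 136 in adult pools, with Tubb3 the most abundant and Nhlh1 and Neurod6 at 0 in the adult. The excess of E15 replicate 1 was 0.61 for Slc35f1, 0.91 for Abcg2, 0.97 for Abcd2 and 0.67 for Abca5, and a median of 1.32 over the markers. Slc35f1, Abcd2 and Abca5 had their lowest E15 pool where the markers did, in replicate 2, and Abcg2 in replicate 3, while Abca5 was higher in the adult, unlike the markers. The astrocyte and progenitor sum was also highest in replicate 1, at 7720, 5540 and 5460 in the E15 pools against 2250, 3790 and 1980 in adult pools. Of its 7 genes 5 had a name, 4 called higher at E15 and 1 in the adult, with Hes5 at 0 in adult replicates 1 and 3. Slc1a3 was the most abundant at E15. Sox2 was so in the adult by its mean, but in adult replicate 2 Slc1a3 (1380) and Gfap (1170) lay above Sox2 (1140). The excess of E15 replicate 1 had a median of 0.33 over the 5 named genes. The order of their sums over the E15 pools was that of Abcg2, with replicates 2 and 3 close to each other. Slc1a3 and Sox2 kept this order, while Gfap, Hes5 and Fabp7 did not. The proliferation sum, over 3 named genes of 5, was 6240, 5600 and 6100 in the E15 pools against 75, 70.1 and 78.3 in adult pools, with all 3 called higher at E15, Cdk1 the most abundant there and Ccnb1 in the adult. The part of neurons, progenitors or dividing cells in the 4 members was not tested.

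Slc37a1 and Slc37a2 exchange sugar phosphates for phosphate. Slc37a1 had 155, 214 and 207 counts in the E15 pools against 268, 330 and 256 in adult pools (-1.35 ± 0.18), while Slc37a2 had 92, 110 and 115 in the E15 pools against 19, 17 and 7 in adult pools (2.09 ± 0.38). Of the choline carrier family, Slc44a3 had 68, 60 and 61 counts in the E15 pools against 511, 462 and 564 in adult pools, 14-fold higher in the adult (-3.81 ± 0.18). Slc44a1 had 773, 1054 and 962 counts in the E15 pools against 320, 362 and 365 in adult pools (0.63 ± 0.13). Slc44a4 had 531, 697 and 636 counts in the E15 pools against 599, 531 and 577 in adult pools, so that its adult excess (-0.66 ± 0.14) appears after scaling and turns to 0.14 with total counts only. Slc35b1 likewise turns to 0.11.

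Among the members nearest the threshold of the authors' kind of test, ranked by the exact test of edgeR under 1 common dispersion, were Slc28a2, Abcc5 and Slc10a4. Slc28a2 had 10, 31 and 15 counts in the E15 pools against 24, 18 and 17 in adult pools (-0.87 ± 0.50), and Slc10a4 had 2, 5 and 7 in the E15 pools against 10, 4 and 10 in adult pools (-1.55 ± 0.72). Slc22a9 had 5, 27 and 24 in the E15 pools against 5, 8 and 0 in adult pools (1.30 ± 0.91). These 3 genes overlapped between the ages, and with Abcb1b and Slc22a2 they make the 5 members tested but not called. Slc22a12 had 3, 3 and 4 counts in the E15 pools against 0 in each adult pool, at least 1.93-fold higher against the same floor. Genes just outside the threshold have no name here.

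Sequence around the annotated start was looked at for all members with a match. RefSeq promoters of GRCr8, windows of 300 bases of which 250 lie upstream of the start, matched 46 of the 62 members, 18 of them called higher at E15 and 23 in the adult. GGGCGG on either strand stood in 77.8% of the first and 60.9% of the second, beside 33.1% of all 33469 promoters. That whole set was not limited to genes with counts here, so it is not matched to the members, and nothing is read from the shares. TATAAA stood in 22.2% and 4.35%, beside 14.2%, and AGGTCA in 22.2% and 4.35%, beside 16.2%. For CCAAT the shares were 38.9%, 34.8% and 37.5%, for TGANNNNGC 44.4%, 30.4% and 40.5%, and for CACGTG 5.56%, 4.35% and 6.42%. The 250 upstream bases alone are shown for members with wide gaps, Slco1a5 (minus strand, chr4:176963813-176964062), Slc22a8 (plus strand, chr1:214927034-214927283) and Slc29a4 (minus strand, chr12:16988339-16988588) as adult-higher genes and Slc35f1 (plus strand, chr20:32572841-32573090) as an E15-higher gene, with matches in capitals, 1 to TATAAA in Slco1a5, 1 to TGANNNNGC in Slc22a8, 5 to GGGCGG and 3 to TGANNNNGC in Slc29a4 and 1 to CCAAT in Slc35f1. Matches that touch or overlap run together.
Slco1a5: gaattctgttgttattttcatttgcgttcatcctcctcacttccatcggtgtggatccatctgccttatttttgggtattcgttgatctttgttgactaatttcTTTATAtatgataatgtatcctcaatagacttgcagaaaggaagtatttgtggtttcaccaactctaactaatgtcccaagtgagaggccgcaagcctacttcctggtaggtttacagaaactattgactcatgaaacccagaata
Slc22a8: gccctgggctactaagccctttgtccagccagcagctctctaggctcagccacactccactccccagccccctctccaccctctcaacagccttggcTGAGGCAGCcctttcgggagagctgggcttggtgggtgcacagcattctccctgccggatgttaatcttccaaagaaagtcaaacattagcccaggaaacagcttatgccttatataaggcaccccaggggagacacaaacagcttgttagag
Slc29a4: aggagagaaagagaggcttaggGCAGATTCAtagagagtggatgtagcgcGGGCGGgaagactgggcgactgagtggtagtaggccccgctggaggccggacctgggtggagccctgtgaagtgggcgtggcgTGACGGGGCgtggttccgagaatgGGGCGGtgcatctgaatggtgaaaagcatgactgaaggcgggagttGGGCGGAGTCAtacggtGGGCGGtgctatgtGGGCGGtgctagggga
Slc35f1: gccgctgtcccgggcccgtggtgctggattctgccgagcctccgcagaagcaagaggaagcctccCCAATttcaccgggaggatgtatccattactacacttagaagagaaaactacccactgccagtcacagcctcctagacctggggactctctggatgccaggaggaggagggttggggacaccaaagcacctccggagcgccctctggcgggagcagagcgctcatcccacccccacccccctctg

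Epithelial markers and other genes of transport were set beside the members. Of the 10 plexus epithelium markers 8 had a name, all called higher in the adult with a median log2 fold change of -2.72, and summed normalized counts of 472000, 550000 and 564000 in the E15 pools against 5040000, 4210000 and 4110000 in adult pools were mostly Ttr. None was at 0 at either age, and the part of epithelial content in the adult-higher members was not tested. Of the 28 conjugating enzymes listed 12 had a name, 9 of them called higher in the adult and 1 at E15. Gsta1 had 224, 170 and 214 counts in the E15 pools against 13259, 12541 and 15171 in adult pools. Of the 17 nuclear receptors and factors listed 10 had a name, 6 of them called higher in the adult and 2 at E15. Nr1i2, the xenobiotic receptor, had 14, 13 and 9 counts in the E15 pools against 163, 114 and 184 in adult pools. Of the 4 scaffold genes 3 were called higher at E15, of the 4 enzymes beside Slc35 carriers 3 in the adult, and of the 7 other carriers 4 at E15 and 3 in the adult. All these genes had been called by the authors too, which raises such counts, and of the 9958 genes tested that have a name 50.6% were called higher at E15 and 42.2% in the adult.

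**Figure D4:**
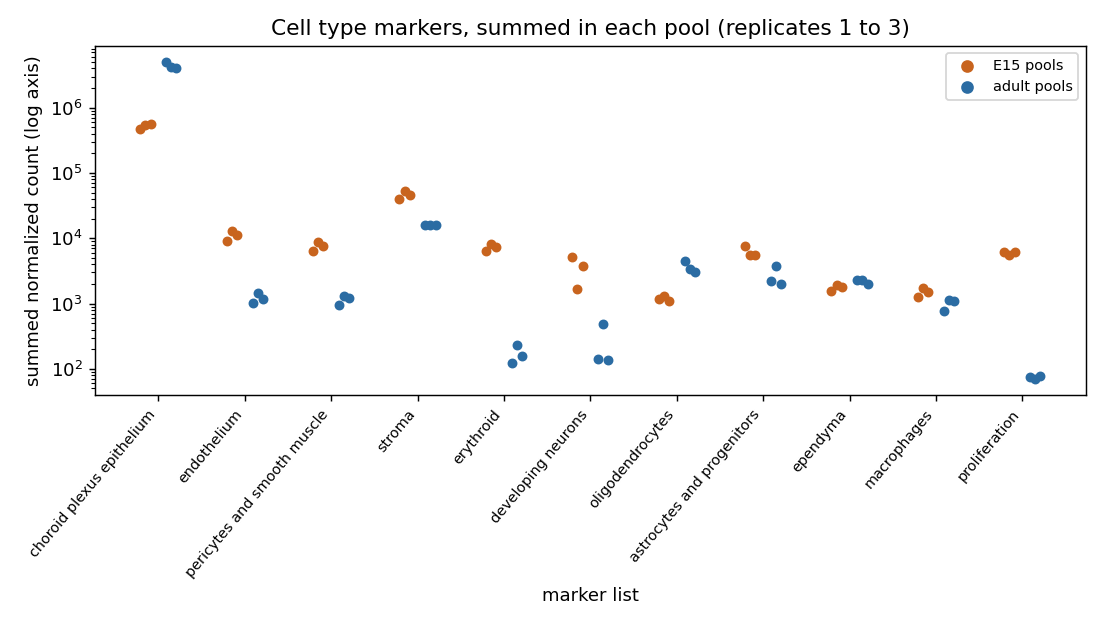
Summed normalized counts on a log axis (vertical) of the named genes of 11 marker lists (horizontal), with a point for each pool, replicates 1 to 3 from left to right. Endothelial, erythroid and developing neuron sums were higher in every E15 pool, and the epithelial sum in every adult pool.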

How the data were processed

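The authors deposited unnormalized counts, in whole numbers for each Ensembl gene, from reads placed with Bowtie 0.12.7, discarding reads without a unique place, and counted with HTSeq 0.4.7p4. A further deposited table holds the authors' log2 fold changes, p-values and adjusted p-values from edgeR 2.4.0. These were not used, and only its gene names and descriptions were read. It names 10093 identifiers, and the other 19386 have no name here. The 16643 genes whose counts summed to above 10 were fitted with edgeR 4.0.16 in R 4.3.3 (TMM factors, quasi-likelihood F test, age as the only term), with Benjamini-Hochberg adjustment over all of them and a threshold of 0.05. The p-values measure only the spread between pools, and an exact permutation of 3 against 3 cannot go below 0.10. The SE is the absolute log2 fold change over the square root of F.

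Members and lists were chosen with earlier results of these data known. In each role the genes named were those with the largest fitted change in each direction and the highest normalized count among members with a mean count above 100, members at 0 at an age with a mean above 10 at the other, and 16 transporters long known at the plexus or brain vessels, 12 of them members. Other genes given with counts, and the ratios within libraries, were picked after values were seen. The results of some genes are not reported here, though members among them are in the counts. Transcript lengths were not used here, so ratios of counts between genes and the most abundant gene of a list rest on counts and not on levels per length. Alternatives were RLE and upper quartile factors, total counts only, no filter, filterByExpr, DESeq2 1.42.0, limma-voom (limma 3.58.1), edgeR's exact test, the replicate number as a block, leaving out each library, and a fold above 2 for counts of members. The fit was tested on simulated data in which a small part of the genes changed, equally many in each direction. The makeup of the simulated libraries did not differ between the ages, so the scaling was not tested by it. Lists and figures used Python 3.11.15.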

Additional observations from a re-analysis of the deposited data

How the results depend on the processing

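Counts of members called were 26 at E15 and 30 in the adult, and over the alternatives that kept all libraries the first ranged from 23 to 29 and the second from 22 to 32. Leaving out 1 library gave 24 to 27 and 30 to 31. Over all genes, 5773 were higher at E15 and 4879 in the adult, and total counts only gave 9799 and 2292, a shift that the missing TMM factors make by construction. Leaving out 1 library gave 5009 to 6218 and 4327 to 5449. Among named members Slc44a4 changed sign with total counts only, to 0.14. Abcb1b, not called in the fit reported, was called with total counts only (2.29), limma-voom (2.49), the exact test (1.49) and without adult replicate 2 (3.11). Slc22a2, also not called, was called with upper quartile factors (1.90), total counts only (2.56), limma-voom (2.27), the exact test (1.76) and without adult replicate 2 (3.60). The exact test also called Slc10a4 (-1.54), Slc22a9 (1.30) and Slc28a2 (-0.86), and leaving out adult replicate 2 called Slc10a4 (-1.93). With total counts only Abcg3l2 and Slc35b1 changed sign, to 0.03 and 0.11, and Slc22a18 (-0.55), Slc35a3 (-0.08), Slc35b3 (-0.25) and Slc35e4 (-0.15) were no longer called. Slc35d3 was no longer called without a filter, with DESeq2, with the block, or without any 1 adult library, and Slc29a3 not without E15 replicate 2 (0.90). Abca17 moved from 2.87 to 3.57 without adult replicate 1, Slc35f2 from 4.25 to 5.52 without adult replicate 2 and to 3.66 without adult replicate 3, and Slc22a9 from 1.30 to 1.99 and 0.70 without the same libraries. Adult replicate 2 had the highest adult sum of developing neuron markers, 483 against 142 and 136 in replicates 1 and 3. Its sums were also highest for astrocytes and progenitors (3790 against 2250 and 1980) and for endothelium (1450 against 1030 and 1170). The cause of the moves without a library was not tested.

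With the replicate number as a replicate block, 25 members were called higher at E15 and 30 in the adult, and 5320 and 4608 of all genes. The numbers do not pair the pools: deviations of same-numbered pools correlated at -0.032, 0.026 and -0.134 over 12374 genes.

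Members with few counts at an age, such as Slc22a12, Slc35d3, Slc10a4 and Slc47a1, are limited by depth.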

Other observations

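Some genes of the same families stand in the authors' table under other names and, other than Tap1 and Tap2, were found by their description after their values had been seen. An ABC gene of the Abca4 protein had 60, 81 and 102 counts in the E15 pools against 6588, 6739 and 5948 in adult pools (log2 fold change -7.09 ± 0.19 SE). Tap2, a subunit of the antigen peptide transporter, had 44, 57 and 56 counts in the E15 pools against 1545, 1498 and 1348 in adult pools, and its partner Tap1 had 95, 110 and 95 in the E15 pools against 856, 1002 and 847 in adult pools. An entry for Abcc9, a potassium channel subunit of vessel walls, had 139, 186 and 179 counts in the E15 pools against 1, 0 and 1 in adult pools, and another entry for the same gene had 441, 413 and 345 in the E15 pools against 6, 27 and 23 in adult pools (3.64 ± 0.38). The pericyte and smooth muscle markers summed to 6390, 8730 and 7740 normalized counts in E15 pools against 949, 1290 and 1220 in adult pools over 5 named genes of 8, with Pdgfrb the most abundant and none at 0, and their part in these values was not tested.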
